A study of Mus musculus with 10 samples.

Results

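The genes described here are Gas6, Pros1, Mertk, Axl, Tyro3, Mfge8, Itgb3, Elmo1 and Dock1, which encode ligands, receptors and signalling partners for the uptake of dying cells. They were taken by symbol from the counts of sense-strand reads. Each matched 1 identifier, so they are 9 genes of 55359 in the count tables, and all 9 passed the filter on low counts with 14374 genes in all. RNA was sequenced from macrophages that carry F4/80, sorted from tumours of male mice, in a study of Braf-mutant melanoma, that had rebounded under daily Braf and Mek inhibitors. The groups are 5 Ccr2 knockout libraries (genotype Ccr2RFP/RFP) and 5 control libraries (Ccr2RFP/+). The controls keep 1 working Ccr2 allele beside the RFP allele, although their titles read WT, and both groups share the drug treatment, the sex and the resistant, rebound state. The sources used here do not give age, strain background or tumour line. No label says that libraries came from separate mice, so a p-value covers only how far these libraries spread, which may in part be technical.

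Macrophages clear dying cells by a process called efferocytosis. Dying cells expose phosphatidylserine on their surface, and the secreted proteins Gas6 and protein S (Pros1) bind it with vitamin K-dependent carboxylated domains. Each bridges it to some or all of the receptor tyrosine kinases Tyro3, Axl and Mertk, together called the TAM receptors. Mfge8 makes a similar bridge to integrins, among them those that contain the beta-3 chain, Itgb3. Elmo1 and Dock1 act downstream as a pair that activates Rac, which reshapes actin around the target. TAM signalling also dampens inflammatory responses in macrophages, and Mertk is widely used as a marker of mature tissue macrophages.

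Library depth, genotype and cell identity were checked first. The libraries held between 34639808 and 43360206 sense-strand counts in genes. Ccr2 (ENSMUSG00000049103), the altered gene, stood at 3.23 to 6.28 CPM (sense-strand counts scaled to a common library total) in knockout libraries, against 59.0 to 176.6 CPM in control libraries (log2 fold change -4.66, SE 0.33, edgeR adjusted p = 0.000139), so each library matched its genotype label. The summed level of 10 core macrophage markers, which include the F4/80 gene Adgre1, was 22126 to 26960 CPM in knockout libraries and 22487 to 28019 CPM in control libraries. Of the 10, Cd68 passed the threshold and was higher in knockout libraries (edgeR adjusted p = 0.0260), and 0 passed with the close control pairs summed. Control library 1 was unusually close to control library 2 (median chi-square per gene 2.75), as was control library 3 to control library 4 (2.66), where any other 2 libraries had 5.71 or more. The smallest of those other values was between knockout library 2 and control library 3. Knockout libraries 4 and 5 were the closest 2 of their group (6.535) but were not set apart like the control pairs. They were summed as well only as a further alternative, and each summing leaves fewer libraries to compare. Summing each close control pair to 1 library left 29 genes past the threshold in place of 203 over all genes, Ccr2 still among them (edgeR adjusted p = 0.00216). Calls of the edgeR fit to all 10 libraries are given with and without this step. Calls from other tools or with a library left out were not repeated with the pairs summed.

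Of the 9 genes, 1 passed the threshold of 0.05 on the adjusted p, and that gene was Gas6, which was higher in knockout macrophages. Over all genes tested 1.41% passed, 0.870% higher and 0.543% lower. At an unadjusted p under 0.05 there were 4 of the 9, Gas6, Pros1, Elmo1 and Axl, where 15.3% of all genes were below that value. The median log2 fold change was 0.08 over the 9 genes, against -0.0034 over all genes tested. In counts simulated for this comparison the test found 11.4% of 1.5-fold changes, 44.6% at 2-fold and 80.3% at 4-fold, so a small change was mostly beyond its reach. The simulated libraries were drawn independently, with no close pairs among them, so these shares may differ for the real libraries.

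Gas6 (ENSMUSG00000031451), the ligand of all 3 TAM receptors, was 2.22-fold higher. Its level was 626, 466, 678, 634 and 515 CPM in knockout libraries 1 to 5, against 262, 260.5, 226, 223 and 345 CPM in control libraries 1 to 5. The groups did not overlap, which held for 4.70% of all genes tested and, with knockout higher, for 2.69%, and control library 5 was the highest of its group. The mean was 584 ± 89.2 CPM in knockout and 263 ± 49.3 CPM in control libraries (SD, n = 5 each), a difference larger than the spread between libraries (log2 fold change 1.15, SE 0.15, quasi-likelihood test in edgeR, adjusted p = 0.00459). Gas6 ranked 28 of all genes by p. It passed with any single library left out (adjusted p of at most 0.0216). It did not pass with the close control pairs summed (log2 fold change 1.08, adjusted p = 0.0909), nor with knockout libraries 4 and 5 summed as well (1.09, adjusted p = 0.168).

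Gas6 was set beside the markers of resident-like macrophages and of monocytes. The summed level of 10 resident-like markers was 3137 to 5994 CPM in knockout and 2039 to 3512 CPM in control libraries. Past the threshold and higher were 4 of the 10, Folr2, Cbr2, Igf1 and Vsig4, where 0.870% of all genes were. Most of the sum came from Mrc1 (means of 1568 and 1147.5 CPM in knockout and control) and F13a1 (1450.5 and 981 CPM). Neither passed (edgeR adjusted p = 0.478 and 0.380). The 7 classical monocyte markers summed to 24.4 to 124 CPM in knockout and 534 to 1515 CPM in control libraries. Past the threshold and lower were 5 of the 7, where 0.543% of all genes were. With the close control pairs summed, 0 of the 10 and 4 of the 7 passed, and with knockout libraries 4 and 5 summed as well, 0 and 1. In control libraries 3, 4, 1, 2 and 5, in rising order of the resident-like sum, Gas6 stood at 226, 223, 262, 260.5 and 345 CPM. In knockout libraries 5, 4, 2, 1 and 3, ordered likewise, it stood at 515, 634, 466, 626 and 678 CPM. Knockout library 2, the lowest of these for Gas6, had a sum of 4087 CPM, above libraries 5 and 4. The highest monocyte sum of each genotype was in knockout library 3 (124 CPM) and control library 5 (1515 CPM). These libraries also had the highest Gas6 level of their genotype. Chil3 alone reached 966 CPM of the sum in control library 5, against a control median of 229 CPM. Of the 7 monocyte markers, 3 had their highest control value in control library 5, and 4 their highest knockout value in knockout library 3. Knockout library 5 had a resident-like sum of 3137 CPM and 515 CPM of Gas6, while control library 5 had a sum of 3512 CPM and 345 CPM of Gas6. The part of either marker list in the Gas6 difference was not tested. In sorted bulk samples more cells of a type and more RNA per cell cannot be told apart.

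Protein S, the other TAM ligand, was not shown to change. Pros1 (ENSMUSG00000022912) stood at 175, 120.0, 90.3, 106 and 125 CPM in knockout libraries 1 to 5, and at 93.2, 95.9, 82.7, 77.6 and 71.1 CPM in control libraries 1 to 5. Knockout library 3 lay within the control range and knockout library 1 well above all others. On the log2 scale knockout differed from control by 0.55 (SE 0.17, adjusted p = 0.142 in edgeR), and it was 0.39 without knockout library 1. Within a library, the log2 ratio of Gas6 to Pros1 counts, which needs no scaling between libraries, was 2.27 ± 0.46 in knockout and 1.64 ± 0.36 in control libraries (n = 5 each). The difference of 0.63 did not pass after adjustment over the 2 ratios compared (exact two-sided permutation p = 0.0397, adjusted p = 0.0794). Control library 5 decided this: its ratio was 2.28, against 1.44 to 1.52 in the other 4 control libraries, and without it the difference was 0.79 (exact permutation adjusted p = 0.0317), where the control libraries left are the 2 close pairs. With those pairs summed and control library 5 kept, the difference was 0.52 (exact permutation adjusted p = 0.286).

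**Figure D1:**
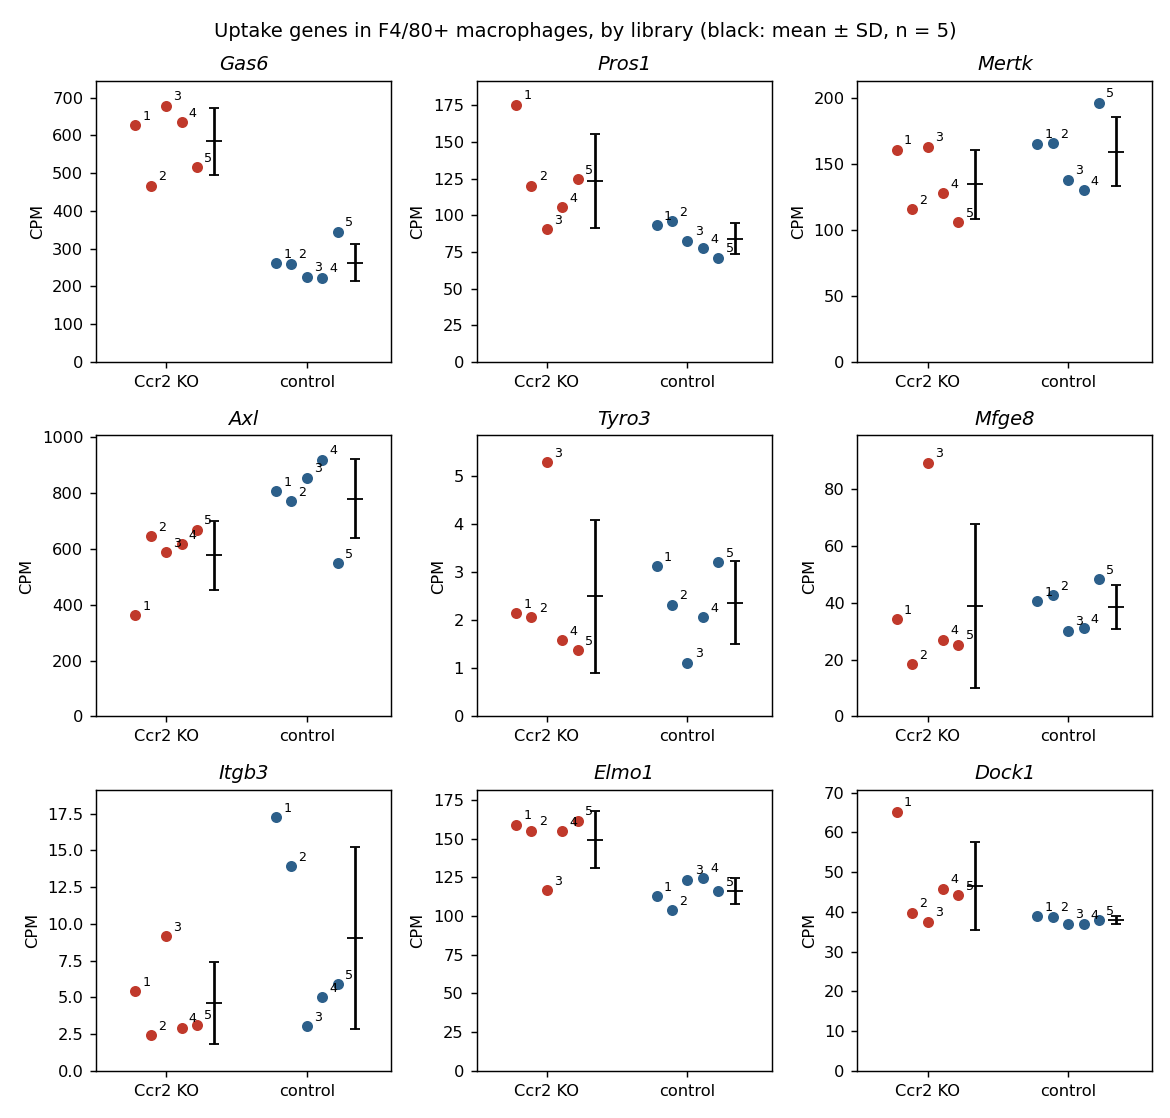
Level of each of the 9 uptake genes in CPM (vertical axis, from 0) in 5 Ccr2 knockout (red) and 5 control (blue) libraries, with library numbers beside the points and the mean ± SD in black. Gas6 lies between 466 and 678 CPM in knockout libraries, above every control library, while the other 8 genes overlap between the groups.

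The TAM receptors did not pass the threshold, and the fitted values of Axl and Mertk were below 0. Axl (ENSMUSG00000002602), which in macrophages responds to interferon and inflammatory signals, stood at 362, 647, 589, 617 and 669 CPM in knockout libraries 1 to 5. In control libraries 1 to 5 it stood at 807, 771.5, 855, 921 and 549 CPM. The lowest library of each genotype, knockout 1 and control 5, stood apart from the others, and without control 5 the groups would not overlap. In edgeR its log2 fold change was -0.44 (SE 0.18, adjusted p = 0.287). Dendritic cell markers, cells in which Axl can also be expressed, had their lowest sum in the same libraries: the sum of 9 markers was 10.5 CPM in knockout library 1 against 21.6 to 30.1 CPM in the other knockout libraries, and 22.4 CPM in control library 5 against 36.3 to 53.4 CPM in the other control libraries. Batf3 carried much of this sum, with 4.70 CPM in knockout library 1 and 10.9 CPM in control library 5, and over the other 8 markers knockout library 1 was still the lowest of its group (5.80 CPM) while control library 5 (11.6 CPM) was not (9.09 CPM in control library 3). Their part in the Axl level was not tested.

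Mertk (ENSMUSG00000014361), the main TAM receptor for uptake by macrophages, differed little between the genotypes relative to the spread. It stood at 161, 116, 163, 128 and 106 CPM in knockout libraries 1 to 5 and at 166, 166, 138, 131 and 197 CPM in control libraries 1 to 5. The lowest libraries were knockout 5 and 2 and the highest was control 5, and the ranges overlapped widely. Fitted with edgeR, the log2 fold change came to -0.24 (SE 0.15, adjusted p = 0.471). The log2 ratio of Axl to Mertk counts within a library was 2.08 ± 0.59 in knockout and 2.29 ± 0.51 in control libraries, a difference of -0.20 (exact two-sided permutation p = 0.603, adjusted p = 0.603, n = 5 each). This ratio varied more within a genotype than between them, from 2.25 to 6.30 on the linear scale in knockout and from 2.79 to 7.05 in control libraries, with knockout library 1 and control library 5 at the low ends. Without knockout library 1 the difference was 0.03.

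Tyro3 (ENSMUSG00000027298), the TAM receptor best known from the nervous system, was barely expressed. It stood at 2.15, 2.07, 5.30, 1.59 and 1.38 CPM in knockout libraries 1 to 5 and at 3.13, 2.32, 1.11, 2.06 and 3.21 CPM in control libraries 1 to 5, from between 39 and 209 counts a library. Knockout library 3 was the highest of all 10. On the log2 scale knockout differed from control by 0.08 (SE 0.41, adjusted p = 0.946 in edgeR), and -0.40 without knockout library 3.

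Levels of different genes were compared per kilobase of exon, with exon lengths from GENCODE release M21. That release is on GRCm38 and not on the build of the counts, so these values depend on an annotation that may differ from the authors' own. In knockout libraries the mean order was Gas6 (229 ± 35.0 CPM per kb), Axl (115 ± 24.6), Mertk (31.1 ± 6.02), Pros1 (30.1 ± 7.86), Elmo1 (11.9 ± 1.47), Mfge8 (8.27 ± 6.13), Dock1 (4.99 ± 1.18), Itgb3 (0.782 ± 0.473) and Tyro3 (0.403 ± 0.258). In control libraries it was Axl (155 ± 28.0 CPM per kb), Gas6 (103 ± 19.4), Mertk (36.8 ± 6.05), Pros1 (20.6 ± 2.55), Elmo1 (9.23 ± 0.676), Mfge8 (8.20 ± 1.66), Dock1 (4.06 ± 0.101), Itgb3 (1.53 ± 1.05) and Tyro3 (0.382 ± 0.139). Gas6 and Axl thus held the upper places in both genotypes and changed places between them. Neighbours in the order whose libraries overlapped were Mertk and Pros1, Elmo1 and Mfge8, Mfge8 and Dock1, and Itgb3 and Tyro3 in knockout libraries, and Axl and Gas6, and Elmo1 and Mfge8 in control libraries.

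The change of places of Gas6 and Axl was seen library by library. Gas6 per kilobase was above Axl in 5 of 5 knockout libraries and in 1 of 5 control libraries, control library 5. The quotient of Gas6 over Axl per kilobase ran from 1.42 to 3.42 in knockout libraries. It ran from 0.478 to 0.667 in control libraries 1 to 4 and was 1.24 in control library 5. This quotient was looked at after the values of both genes were known and was not tested.

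**Figure D2:**
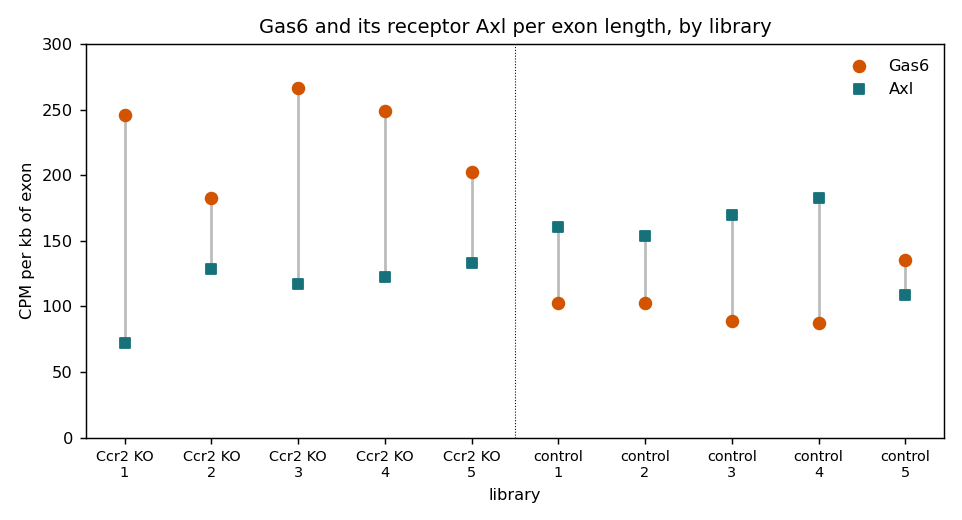
Level of Gas6 (circles) and Axl (squares) per kilobase of exon (vertical axis, CPM per kb) in each library (horizontal axis, 5 Ccr2 knockout then 5 control), joined by a line within a library. The circle is above the square in every knockout library and below it in control libraries 1 to 4.

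Mfge8 and Itgb3 did not pass the threshold, and their values leaned on single libraries. Mfge8 (ENSMUSG00000030605) stood at 34.2, 18.4, 89.2, 26.9 and 25.2 CPM in knockout libraries 1 to 5 and at 40.6, 42.6, 30.1, 31.0 and 48.2 CPM in control libraries 1 to 5. Knockout library 3 was far above all others, while 3 of the other 4 knockout libraries lay below every control library. In edgeR its log2 fold change was 0.01 (SE 0.38, adjusted p = 0.991). Without knockout library 3 it was -0.55 (adjusted p = 0.181), so that library decides the sign of the value, and neither value passes the threshold.

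Fibroblasts, which also make Mfge8, left a trace in the same library. The summed level of 11 fibroblast markers was 3677 CPM in knockout library 3, against 342 to 717 CPM in the other knockout libraries and 753 to 2411 CPM in control libraries, and 9 of the 11 markers had their highest knockout value there. None of the 11 passed the threshold between the genotypes and none was at 0. The collagen gene Col3a1, the most abundant of them, averaged 675 ± 867 CPM in knockout and 808 ± 455 CPM in control libraries. Within each genotype Mfge8 followed the order of this sum with 1 exception. From the lowest sum to the highest, knockout libraries 2, 5, 4, 1 and 3 had 18.4, 25.2, 26.9, 34.2 and 89.2 CPM of Mfge8, and control libraries 3, 4, 2, 1 and 5 had 30.1, 31.0, 42.6, 40.6 and 48.2 CPM. Tyro3 followed the same order in the control libraries, at 1.11, 2.06, 2.32, 3.13 and 3.21 CPM, and in knockout libraries was highest in library 3. The part of fibroblast RNA in these levels was not tested.

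Gas6 also followed the order of the fibroblast sum within each genotype, with 1 exception in each. From the lowest sum to the highest, it stood at 466, 515, 634, 626 and 678 CPM in knockout libraries 2, 5, 4, 1 and 3 and at 226, 223, 260.5, 262 and 345 CPM in control libraries 3, 4, 2, 1 and 5. Between the genotypes the order differed: knockout library 2 had the lowest fibroblast sum of all 10 libraries, 342 CPM, and 466 CPM of Gas6, above control library 5, which had a fibroblast sum of 2411 CPM and 345 CPM of Gas6. Without knockout library 3 the log2 fold change of Gas6 was 1.09 (edgeR adjusted p = 0.00866). The part of fibroblast RNA in the Gas6 level was not tested.

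**Figure D3:**
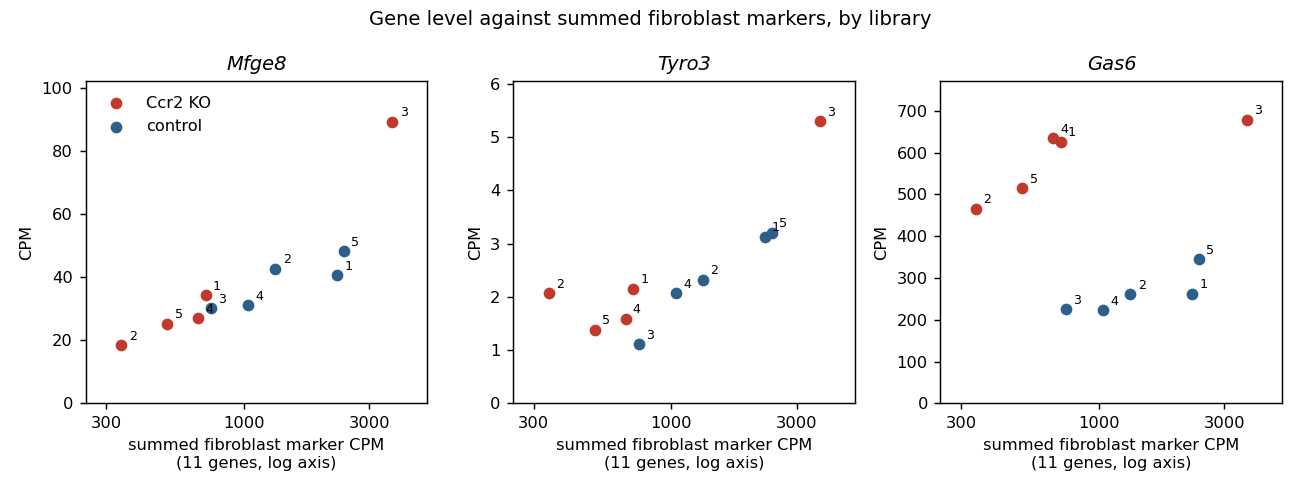
Levels of Mfge8, Tyro3 and Gas6 in CPM (vertical axes) against the summed CPM of 11 fibroblast markers (horizontal axis, logarithmic) in Ccr2 knockout (red) and control (blue) libraries, with library numbers. Knockout library 3, at 3677 CPM of markers, is the highest point for all 3 genes, while every knockout point for Gas6 lies above every control point.

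Itgb3 (ENSMUSG00000020689), the integrin beta-3 chain, which platelets and endothelial cells also carry, was low and uneven. It stood at 5.40, 2.43, 9.17, 2.93 and 3.13 CPM in knockout libraries 1 to 5, and at 17.3, 13.9, 3.06, 5.01 and 5.88 CPM in control libraries 1 to 5. The high values of the control group came from libraries 1 and 2, the closely alike pair. Fitted with edgeR, the log2 fold change came to -0.97 (SE 0.52, adjusted p = 0.399). With 1 library left out it ran from -1.37 to -0.59, the latter without control library 1. It was negative in all 22 alternatives and passed in none. Endothelial markers were highest in those control libraries too, with a sum of 9 markers of 38.2 and 30.9 CPM against 20.3 to 24.1 CPM in the other control libraries and 13.9 to 20.2 CPM in knockout libraries. Platelet markers summed to 1.40 to 13.7 CPM in knockout and 1.80 to 5.95 CPM in control libraries, with knockout library 3 the highest and Gp1ba, Gp5, Gp6 and Gp9 under 1 CPM in all. Their part in the Itgb3 level was not tested. Another integrin beta chain, Itgb5, listed among the other recognition genes, was far more abundant than Itgb3. It averaged 776 ± 108 CPM in knockout and 747 ± 135 CPM in control libraries (edgeR adjusted p = 0.875).

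The engulfment pair Elmo1 and Dock1 had small positive fold changes that did not pass. Elmo1 (ENSMUSG00000041112), the scaffold of the pair, stood at 159, 155, 117, 155 and 162 CPM in knockout libraries 1 to 5, and at 113, 104, 123, 125 and 116 CPM in control libraries 1 to 5. Only knockout library 3 lay within the control range, and the other 4 knockout libraries were above every control library. On the log2 scale knockout differed from control by 0.36 (SE 0.10, adjusted p = 0.121 in edgeR), and without knockout library 3 it was 0.44 and passed the threshold (adjusted p = 0.0325).

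Dock1 (ENSMUSG00000058325), the exchange factor that acts on Rac, stood at 65.2, 39.8, 37.6, 45.9 and 44.2 CPM in knockout libraries 1 to 5 and at 39.0, 38.8, 37.0, 37.0 and 37.9 CPM in control libraries 1 to 5. The control libraries were nearly alike, and knockout library 1 was well above the rest. In edgeR its log2 fold change was 0.29 (SE 0.14, adjusted p = 0.338), and 0.14 without knockout library 1, the library that was also highest for Pros1 and lowest for Axl.

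The rest of the uptake pathway was read from 7 lists of 91 other genes, of which 90 were tested. Of these 1 passed the threshold, where 1.41% of all genes tested passed. That gene was S1pr1, a receptor for sphingosine-1-phosphate, a lipid that dying cells release to attract phagocytes, and it was higher in knockout macrophages. Its level was 27.5 to 42.5 CPM with a median of 36.8 CPM in knockout libraries, against 9.78 to 22.3 CPM with a median of 11.5 CPM in control libraries. Fitted with edgeR, the log2 fold change came to 1.42 (SE 0.23, adjusted p = 0.0167). The call was lost without control library 4 (adjusted p = 0.0509), with the close control pairs summed (0.151), with knockout libraries 4 and 5 summed as well (0.288) and without knockout libraries 4 and 5 (0.105). Endothelial and T cells also express S1pr1. The endothelial sum is given above for Itgb3, and the 10 T and NK cell markers other than Cd4 summed to 2.61 to 98.4 CPM in knockout and 29.5 to 107 CPM in control libraries. The part of these cells in the S1pr1 level was not tested. The median log2 fold change over the 90 genes was 0.02, against -0.0034 over all genes. An unadjusted p under 0.05 was seen for 21 of the 90, where 15.3% of all genes were below that value. By list there were 8 of 24 recognition, 2 of 19 engulfment, 2 of 19 phagosome and 5 of 10 lipid genes. There were also 1 of 7 restraint, 3 of 7 signal receptor and 0 of 4 carboxylation genes.

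Among 24 tested genes for other recognition receptors and bridging molecules, 0 passed the threshold, while 8 had an unadjusted p under 0.05 (15.3% of all genes). Adgrb1, a phosphatidylserine receptor also called Bai1, averaged 0.0538 ± 0.0805 CPM in knockout and 0.697 ± 0.395 CPM in control libraries (adjusted p = 0.0579). Timd4, a phosphatidylserine receptor of resident macrophages, averaged 3.89 ± 2.19 CPM in knockout and 0.536 ± 0.371 CPM in control libraries (adjusted p = 0.0648), with 28 counts in knockout library 3, within the control range of 5 to 36 counts. Thbs1, the gene of the bridging protein thrombospondin-1, averaged 219 ± 171 CPM in knockout and 1034 ± 594 CPM in control libraries (adjusted p = 0.0947). The groups of Thbs1 did not overlap, and control library 5 reached 2079 CPM. With DESeq2, 7 pathway genes passed in place of 1, namely Adgrb1, Gpr132, Lrp1, S1pr1, Stab1, Thbs1 and Timd4, and with limma-voom these without Timd4.

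Of the 6 other receptors for signals of dying cells, 0 passed. Gpr132, a receptor for lysophospholipids, averaged 28.6 ± 9.09 CPM in knockout and 71.6 ± 31.4 CPM in control libraries (edgeR adjusted p = 0.0562), and its groups did not overlap. P2ry12, a receptor for nucleotides, had a log2 fold change of 0.38 (adjusted p = 0.293).

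Among genes that act after recognition, 0 passed in each of 3 lists. Of 19 other genes of the engulfment machinery 0 passed, and the smallest p belonged to Dock5, a relative of Dock1, with a log2 fold change of -0.42 (edgeR adjusted p = 0.139), then Trio with 0.25 (0.301) and Plcg2 with -0.21 (0.392). Dock2, another relative of Dock1 and more abundant than it, averaged 327 ± 58.4 CPM in knockout and 275 ± 37.4 CPM in control libraries (edgeR adjusted p = 0.422). Of 19 genes of phagosome maturation 0 passed. The vesicle trafficking gene Uvrag had a log2 fold change of -0.25 (adjusted p = 0.179), the lysosomal membrane gene Lamp1 of 0.25 (0.232) and the NADPH oxidase gene Cybb of -0.36 (0.352). Of 10 genes of lipid sensing and efflux 0 passed, while 5 had an unadjusted p under 0.05 (15.3% of all genes). The sterol-sensing receptor gene Nr1h3 had a log2 fold change of -0.63 (adjusted p = 0.204), the transporter gene Abca7 of 0.35 (0.237) and the lipid receptor gene Pparg of -0.97 (0.267).

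Genes that restrain uptake or prepare its ligands did not pass either. Of 7 genes of shedding, feedback and restraint 0 passed. Cd47, whose product tells macrophages not to engulf a cell, lay between 162 and 211 CPM in knockout and between 218.5 and 248 CPM in control libraries, and the groups did not overlap (log2 fold change -0.31, SE 0.09, edgeR adjusted p = 0.126). The cytokine signalling inhibitor Socs3 had a log2 fold change of -0.81 (adjusted p = 0.387), with 330 and 238 CPM in knockout libraries 4 and 5 against 890 to 1204 CPM in the other knockout libraries, and Siglecg of -0.82 at about 1 CPM or less (0.450). Of 4 genes of vitamin K-dependent carboxylation, the modification on which phosphatidylserine binding by Gas6 and protein S depends, 0 passed. The carboxylase gene Ggcx averaged 11.6 ± 2.06 CPM in knockout and 11.8 ± 1.03 CPM in control libraries (log2 fold change -0.02), and the vitamin K reductase genes Vkorc1 and Vkorc1l1 had log2 fold changes of 0.30 (adjusted p = 0.369) and 0.03 (0.919).

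**Figure D4:**
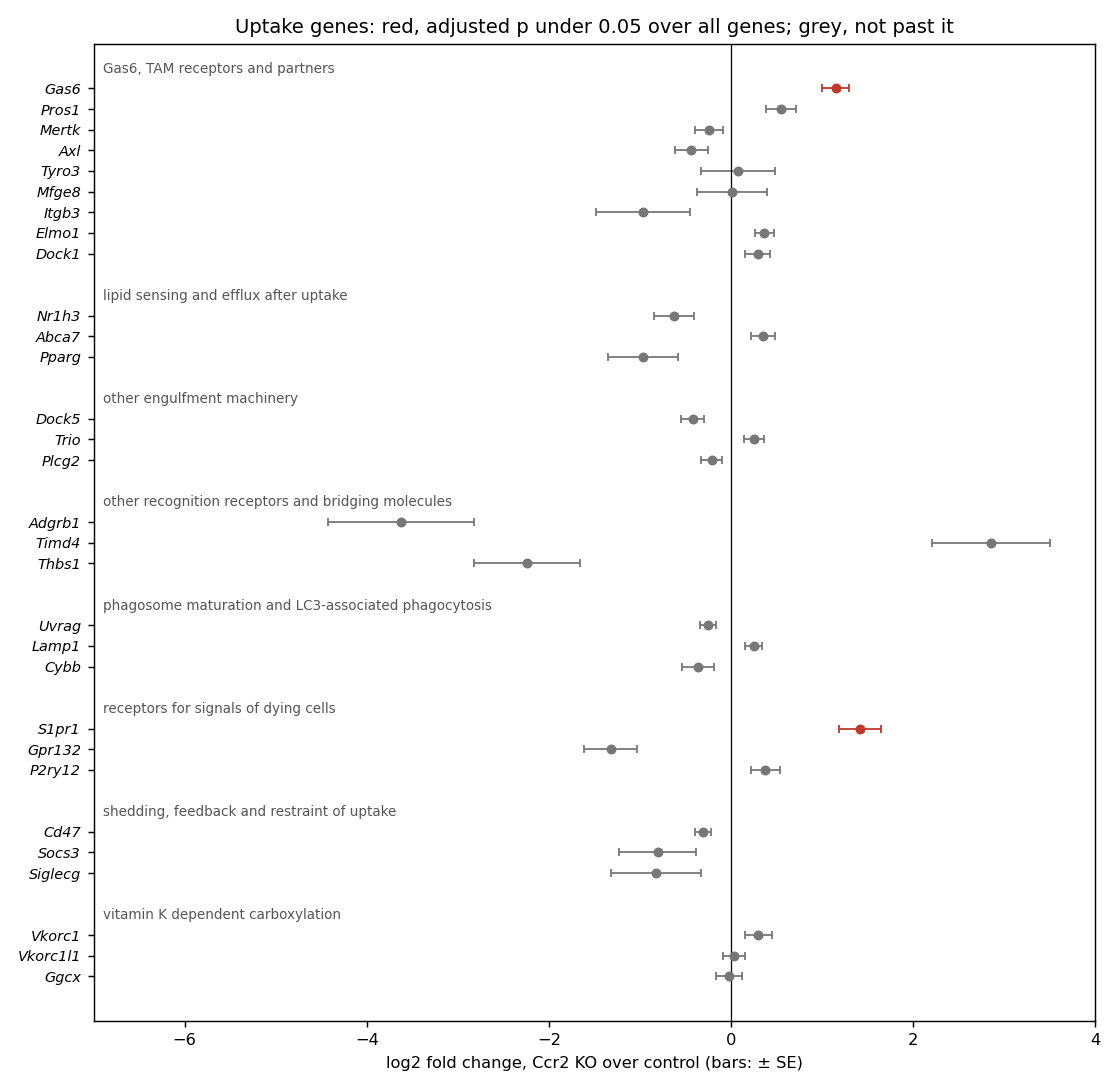
Log2 fold change of Ccr2 knockout over control (horizontal axis, bars ± SE) for the 9 uptake genes and for the 21 genes named from 7 pathway lists (rows). The red points, past an adjusted p of 0.05 over all genes, are Gas6 at 1.15 and S1pr1 at 1.42, and the grey points did not pass.

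The genes whose profile over the 10 libraries was most like that of Gas6 were found by the root mean square difference of log2 CPM, each gene centred on its own mean, among 8547 genes of at least 10 CPM. They were Serpinb6a (0.158), a serine protease inhibitor, Meis3 (0.187), a homeobox factor, Timp2 (0.199), an inhibitor of matrix metalloproteinases, Spats2 (0.215) and Myo7a (0.217), an unconventional myosin. All 5 were higher in knockout libraries, with log2 fold changes of 0.82 to 1.37, which the choice by likeness to Gas6 brings with it. Serpinb6a, Timp2 and Spats2 no longer passed with most single libraries left out (edgeR adjusted p of up to 0.0978, 0.118 and 0.0950). After summing of the close pairs Meis3 passed in edgeR (adjusted p = 0.0426) and the other 4 did not, Myo7a at 0.0613, Spats2 at 0.189, Serpinb6a at 0.249 and Timp2 at 0.284. Of the other 8 uptake genes Pros1 was the nearest to Gas6 (0.485) and Itgb3 the farthest (1.25). The values share the libraries, their scaling and the genotype split.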

How the data were processed

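Bulk RNA-seq of sorted macrophages was read from 10 deposited tables of whole-number read counts per gene, 1 for each library, that the authors made with STAR on GRCm39, per the submitters' processing notes. Neither the STAR version nor the annotation is given in the sources used here. The libraries were poly(A)-enriched and directional, per the labels' protocols, and the reverse-strand column was used, which held 96.2% to 96.5% of strand-assigned counts. Multimapping reads are listed as 0, and rows for unmapped (6.87% to 8.07% of reads), ambiguous (1.83% to 2.10%) and unassigned reads (3.63% to 5.68%) stayed out of library sizes. A combined table of 10 columns without names and a list of genotypes were not used. Symbols matched 52083 of 55359 identifiers, and the rest held 0.145% of counts.

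After filterByExpr (minimum count 10) and TMM scaling, the genotypes were compared by quasi-likelihood F-tests (edgeR 4.0.16, R 4.3.3), with Benjamini-Hochberg adjustment over all 14374 genes tested and a threshold of 0.05. Each SE is the absolute log2 fold change over the root of F. CPM uses TMM-scaled library sizes, and log2 CPM a prior count of 2. Ratios of counts were compared by exact permutation over 252 arrangements (scipy 1.17.1), whose smallest two-sided p is 0.00794. The test was tested on 3 sets of simulated counts of about 14164 genes, where 4.48% of calls were false. That share holds for independent libraries and does not cover the close control pairs. Alternatives used DESeq2 1.42.0 and limma 3.58.1, and figures matplotlib 3.10.9. Same-numbered libraries of the 2 groups did not deviate together (correlations of 0.34, 0.08, -0.53, 0.18 and -0.22), so the numbers were not treated as pairs.

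The 9 genes, the pathway lists and the marker lists were chosen with earlier results of these data known. Named besides the 9 genes are Ccr2, from each pathway list the genes past the threshold and the 3 with the smallest p, the 2 most abundant genes of each marker list where a result turned on them, and the 5 genes most like Gas6. Lrp1, Stab1, Itgb5, Dock2 and Tmem255b and the markers Gp1ba, Gp5, Gp6, Gp9, Adgre1, Cd68, Folr2, Cbr2, Igf1, Vsig4, Tagln, Mlana, Tyr, Tyrp1, Dct and Slc45a2 fall outside this rule and were named after their values were seen.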

Additional observations from a re-analysis of the deposited data

Results flagged for a closer look

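In 66 groups of 5 libraries, 1 for each reported gene or ratio and genotype, a library was marked when its gap to the nearest other exceeded 0.71 of the group's range. Chance marks about 1 group in 20, and 11 were marked. Knockout library 3 was marked as the highest for Mfge8 (89.2 CPM, next 34.2) and Tyro3 (5.30 CPM, next 2.15) and as the lowest for Elmo1 (117 CPM, next 155). The sum of fibroblast markers was highest in the same library, at 3677 CPM. Knockout library 1 was marked as the lowest for Axl (362 CPM, next 589) and the highest for Vkorc1l1 (21.1 CPM, next 16.1). Knockout library 2 was marked as the highest for Adgrb1 (0.193 CPM, next 0.0522), a level of few counts.

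Control library 5 was marked for 5 values. It was the highest for Gpr132 (128 CPM, next 59.7), Thbs1 (2079 CPM, next 932), Trio (58.3 CPM, next 49.1) and the log2 ratio of Gas6 to Pros1 counts (2.28, next 1.52), and the lowest for Pparg (10.3 CPM, next 26.5). The classical monocyte markers summed to 1515 CPM in this library, of which Chil3 alone was 966 CPM, against 534 to 690.4 CPM in the other control libraries. Gas6 itself was marked in neither genotype.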

How the results depend on the processing

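The direction of the Gas6 difference held in all 22 alternatives (log2 fold change 1.08 to 1.28). Its call held in 19 and was lost with the close control pairs summed (adjusted p = 0.0909), with knockout libraries 4 and 5 also summed (0.168) and with the title number as a replicate block (0.0678), where 0 of the 9 genes passed each time. Leaving out each library gave 1 to 2 of the 9, the second being Elmo1. Ccr2 passed throughout (log2 fold change -4.83 to -4.43). Of all genes, 203 passed, against 799 with DESeq2, 446 with limma-voom, 55 with the replicate block, 29 and 8 with the pairs summed without and with knockout libraries 4 and 5, 50 without those libraries, and 62 to 267 with 1 library left out (62 without control library 2, 77 without control 1 or 4, 92 without knockout 5, 101 without control 3 and 107 without knockout 4). Of pathway genes, 1 passed, against 7 with DESeq2, 6 with limma-voom, 2 without a filter on low counts, 0 with either summing and 0 without knockout libraries 4 and 5, and 0 to 4 with 1 library left out (0 without control library 4, 2 without knockout 2, 3 without control 5 and 4 without knockout 3). The Gas6 to Pros1 difference ranged from 0.47 to 0.79, and the Axl to Mertk difference from -0.402 to 0.028, with 1 library left out.

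For Gas6 to Pros1 and Axl to Mertk the block had to give the unpaired differences, as each number has 1 library per genotype. As the numbers were not shown to be pairs beyond number 1, its lost calls say nothing of effect size. Values near 0 turned sign. Tyro3 was -0.10 with limma-voom, -0.072 with the replicate block, -0.005 with the control pairs summed and -0.40 to 0.23 with 1 library left out. Mfge8 was -0.298, -0.234 and -0.044 under the same 3 settings and -0.55 to 0.20 with 1 library left out. Ggcx was 0.004 with library sizes only and Vkorc1l1 -0.022 with limma-voom, and with 1 library left out they ran from -0.105 to 0.044 and from -0.063 to 0.095. The cause of these moves was not tested. Adgrb1 rests on 0 to 8 counts in a knockout library, few enough for counting error alone to be large.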

Other observations

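Markers of other cells were summed beside the lists already given. T and NK cell markers summed to 89.1 to 233 CPM in knockout and 80.7 to 182 CPM in control libraries, with 1 of 10 tested genes past the threshold. That gene was Cd4, higher in knockout libraries (86.5 to 184 CPM, against 47.2 to 75.2 CPM in control libraries), while the other 9 tested genes had negative log2 fold changes and did not pass. Without Cd4 the markers summed to 2.61 to 98.4 CPM in knockout and 29.5 to 107 CPM in control libraries. Neutrophil markers summed to 115 to 213 CPM in knockout and 162 to 550 CPM in control libraries, and 0 of 8 passed. Pericyte and smooth muscle markers summed to 44.0 to 129 CPM in knockout and 27.4 to 76.1 CPM in control libraries, with Tagln past the threshold and lower in knockout libraries. Cspg4 alone made up 37.1 to 123 CPM of this sum in knockout and 13.4 to 31.1 CPM in control libraries, and the other 6 markers summed to 5.69 to 22.0 CPM in knockout and 14.0 to 48.7 CPM in control libraries. Neither Cd4 nor Tagln passed with the close control pairs summed, an alternative added for the marker lists after the data were seen. Melanoma markers summed to 29.8 to 58.4 CPM in knockout and 32.8 to 56.8 CPM in control libraries, where Mlana, Tyr, Tyrp1, Dct and Slc45a2 were under 1 CPM in all libraries. Sox10 and Mitf made up most of this sum. Sox10 lay at 13.9 to 34.1 CPM in knockout and 3.57 to 40.5 CPM in control libraries. Mitf lay at 15.3 to 23.4 CPM in knockout and 13.1 to 28.1 CPM in control libraries. Keratinocyte and epithelial markers summed to 0.313 to 2.15 CPM in knockout and 0.429 to 8.57 CPM in control libraries.

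Strand choice bears on Gas6 because Tmem255b lies on the opposite strand and shares 34 exon bases with it in the annotation. Counts of Gas6 without regard to strand were 91.9% to 93.7% of the sense-strand counts, against 100% to 104% for the other 8 genes. The log2 fold change of Gas6 was 1.16 with counts that ignore strand (edgeR adjusted p = 0.00507).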
